A study of Mus musculus with 4 samples.

Results

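The B cells described here are those that the authors annotated as B cells and placed in cluster 2 of their clustering. Both conditions were read from the deposited cell annotation, and they hold for 964 of the 5794 cells and of the 3130 annotated B cells. Cluster 2 has 968 cells in all, and the other 4 carry another annotation and were left out. The other B cells used for comparison are 1083 cells of cluster 0, 996 of cluster 1 and 80 of cluster 10, together 2159, and 7 annotated B cells in further clusters were not used.

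The cells are peripheral blood mononuclear cells, which the authors annotated as B cells, CD4+ and CD8+ T cells, plasmablasts and NK cells. They come from 4 female wild-type C57BL/6 mice and were sequenced with 3' droplet libraries. All 4 were anaesthetized with ketamine and xylazine. The 2 treated mice, Maus3_2 and Maus6, had the left ear exposed for 10 min to non-thermal plasma (NTP), a partly ionized argon gas. Maus2_2 and Maus4_2, the 2 untreated mice, received anaesthesia alone. Blood was drawn at 120 min, which the study counted from irradiation in treated mice and from the start of anaesthesia in untreated mice. This difference in starting point cannot be told apart from treatment. Each mouse is 1 library, so the mouse is the replicate (n = 2 per group) and mouse and library cannot be told apart. Cluster 2 holds 285 cells of Maus3_2 and 187 of Maus6 against 234 of Maus2_2 and 258 of Maus4_2. The summed unique molecular identifiers (UMIs, each standing for 1 captured RNA molecule) amount to 1399722 and 780705 for the treated mice, against 1067797 and 909455 for the untreated mice. Of the cluster 2 barcodes, 1 also occurs in another library.

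B cells carry an immunoglobulin on their surface as antigen receptor, held by the signalling partners CD79A and CD79B, and present antigen on MHC class II. Mature naive B cells co-express the isotypes IgM and IgD from 1 locus, circulate through blood, spleen and lymph nodes, and home to follicles by way of CXCR5. The transcription factors PAX5 and EBF1 keep the B cell programme active.

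The markers were those of B cells. Cd79a, which encodes a chain of the receptor complex, had a UMI in 97.9% of the cluster 2 cells, Ms4a1, which encodes the surface protein CD20, in 80.8% and Ighd, the IgD heavy chain, in 90.7%. In the CD4+ T cells, which should lack these genes, the shares were 2.70%, 0.923% and 0.725%, at a median of 4429 UMIs per cell against 4244.5 in cluster 2. Ighm had a UMI in 99.4% of cluster 2 cells and also in 41.0% of the CD4+ T cells, so its presence in a cell does not identify a B cell here. Most defining markers of other cells were close to absent. Cd3d, a T cell receptor subunit, was seen in 7 cells, the NK receptor Ncr1 in 1, the monocyte receptor Csf1r in 2, the neutrophil gene S100a8 in 2 and the joining chain gene Jchain of plasma cells in 1. The monocyte marker Lyz2 was less rare, with a UMI in 33 cells (3.42%). Its share was 3.24% in the other B cells and 0.593% in the CD4+ T cells. The T cell markers summed to 9 to 22 UMIs per mouse, the NK cell markers to 0 to 6 and the neutrophil markers to 1 to 8. The 9 monocyte and dendritic cell markers summed to 50 to 84 UMIs, with Ms4a6c the highest of them at 33.2 CPM. Ms4a6c was higher than in the other B cells in 4 of 4 mice (log2 difference in CPM 0.60). The plasma cell list summed to 225 to 396 UMIs, of which Mzb1 and Irf4, also expressed in other B cells, were at 120 and 69.0 CPM.

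Among B cell subsets, follicular markers were present, those of B-1 cells were rare, and those of transitional and marginal zone B cells were mixed. Fcer2a, the low-affinity IgE receptor of follicular B cells, had a UMI in 67.9% of cells. Of the transitional B cell markers, Cd93 had a UMI in 1.35% of cells, whereas Cd24a had one in 36.4% and Vpreb3, a partner of the surrogate light chain, in 37.7% (34.3% and 39.0% of the other B cells). The B-1 cell genes Cd5 and Spn were seen in 0.519% and 1.24%. Cd1d1 and Cd9, which mark marginal zone B cells, were each seen in 3.84%. The further marginal zone markers Cr2, also listed here as a follicular gene, and Mzb1 had a UMI in 34.9% and 39.0%. In the other B cells these shares were 20.6% and 44.1%. In CD4+ T cells Cd1d1 and Cd9 had a UMI in 5.87% and 17.1%, above the shares in cluster 2. A UMI of either gene therefore does not identify a B cell here. Cd5, which T cells express, was seen in 39.4% of the CD4+ T cells. None of the 6 B-1 cell genes reached 20 CPM (UMIs scaled to a fixed total per sum) in cluster 2 or in the other B cells.

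What set cluster 2 apart from the other B cells was the number of RNA molecules per cell from long genes. All values of this comparison are descriptions with no test, because the clusters were made from the same genes. The mean number of UMIs per cell was 4294 ± 594 (SD, n = 4 mice) in cluster 2, 3497 ± 589 in cluster 0 and 2887 ± 502 in cluster 1. Genes whose annotated locus spans over 100 kb, exons and introns together, gave 780 ± 104 UMIs per cell in cluster 2, against 465 ± 72.0 in cluster 0 and 268 ± 44.3 in cluster 1. The mRNAs of ribosomal proteins, which come from short genes, gave 828 ± 112 UMIs per cell in cluster 2, 883 ± 153 in cluster 0 and 891 ± 158 in cluster 1. Thus long-gene molecules per cell rose from cluster 1 through cluster 0 to cluster 2, while the means for ribosomal protein molecules differed by less than the SD between mice. Within Maus3_2, Maus6 and Maus2_2 the ribosomal protein molecules per cell were fewer in cluster 2 than in clusters 0 and 1. In Maus4_2 they were slightly more, at 690 against 672 and 675. Cluster 10 had the most UMIs per cell, 5220 ± 544, of which 593 ± 67.6 came from genes over 100 kb and 1367 ± 109 from ribosomal protein genes.

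**Figure D1:**
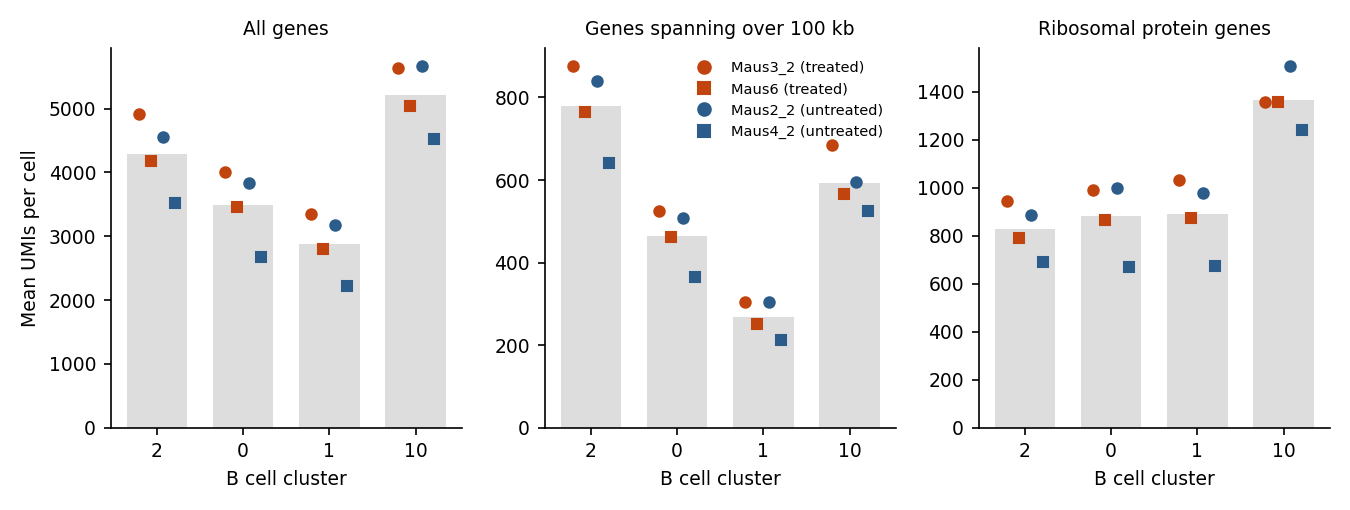
Mean UMIs per cell in the 4 B cell clusters, for all genes, for genes spanning over 100 kb and for ribosomal protein genes (points: mice, orange treated and blue untreated; bars: mean of 4 mice). In each mouse cluster 2 lies above clusters 0, 1 and 10 for long genes, while clusters 2, 0 and 1 lie close together for ribosomal protein genes.

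The order held in each mouse. In cluster 2, genes over 100 kb gave 877, 765, 839 and 641 UMIs per cell in Maus3_2, Maus6, Maus2_2 and Maus4_2, against 526, 462, 507 and 365 in cluster 0 and 304, 251, 304 and 213 in cluster 1. As shares, these genes took 17.8% to 18.4% of all UMIs of cluster 2, 13.1% to 13.6% in cluster 0 and 8.97% to 9.59% in cluster 1. Ribosomal protein genes took 18.9% to 19.6%, 24.7% to 26.1% and 30.4% to 31.4%. No range of a cluster overlapped that of another among these 3. Malat1, a nuclear long non-coding RNA, gave 140 ± 16.6 UMIs per cell in cluster 2, 104 ± 13.8 in cluster 0 and 70.7 ± 10.1 in cluster 1. The mitochondrial share of UMIs was 4.92% to 5.22% in cluster 2, below the 5.52% to 5.91% of cluster 0 and the 6.01% to 6.39% of cluster 1. The sources used here do not state whether reads in introns were counted, and the part of unspliced RNA in these values was not tested.

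For the comparison gene by gene, counts were summed per mouse, scaled by TMM over cluster 2 and the other B cells, and the difference in log2 CPM was taken within each mouse. Of 6009 genes at 20 CPM or more, 1427 (23.7%) were higher in cluster 2 in 4 of 4 mice and 1753 (29.2%) lower. The scale matters for the direction. TMM sets the median difference of all genes to -0.00, whereas scaling by the total UMIs shifts it to 0.32, so the differences below are relative to the typical gene. The difference followed the span of the gene, with a Spearman's rho of 0.733 across 5971 genes, which share libraries and are not independent. The median log2 difference was -0.68 for the 578 genes of up to 5 kb, -0.33 from 5 to 20 kb, 0.02 from 20 to 50 kb, 0.20 from 50 to 100 kb, 0.32 from 100 to 200 kb and 0.42 for the 285 genes over 200 kb. Without the ribosomal protein genes, the shortest class still had a median of -0.65.

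**Figure D2:**
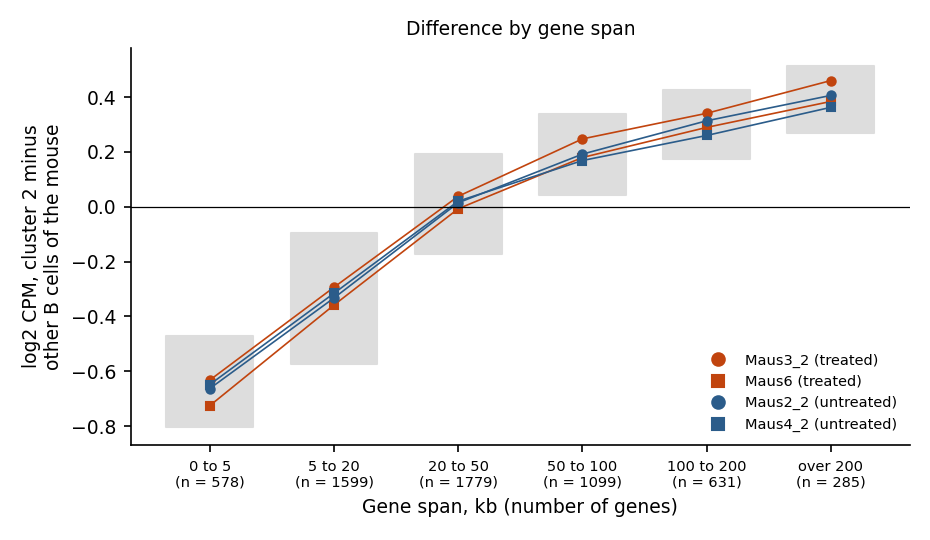
Median difference in log2 CPM between cluster 2 and the other B cells of the same mouse, by class of gene span in kb (lines: mice; grey boxes: quartiles of the genes, from the mean of the 4 mice). The median rises from -0.68 in the shortest to 0.42 in the longest class, and the lines of the 4 mice run close together.

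The B cell genes were spread along the same line. Of the 14 B cell identity genes, 3 were higher in 4 of 4 mice, Pax5, Ebf1 and Bank1, and 9 were lower. Pax5 spans 185.7 kb and had 3.16 ± 0.220 UMIs per cell in cluster 2, 1.85 ± 0.138 in cluster 0 and 0.980 ± 0.130 in cluster 1. Ebf1 spans 390.8 kb, with 18.2 ± 3.15, 11.2 ± 2.01 and 6.88 ± 1.48 UMIs per cell. Bank1, which encodes a scaffold of B cell receptor signalling, spans 272.7 kb, with 13.4 ± 1.02, 7.78 ± 0.839 and 3.80 ± 0.405. For each of these 3 genes the level per cell was highest in cluster 2 and lowest in cluster 1.

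The short marker genes did not follow this order per cell. Cd79a spans 4.8 kb and had 8.05 ± 1.32 UMIs per cell in cluster 2, 8.18 ± 1.6 in cluster 0 and 8.36 ± 1.54 in cluster 1. Its log2 difference in CPM was -0.76 ± 0.02, since a like number of molecules is a smaller share of a larger total. Cd74, the invariant chain that guides MHC class II, had 39.4 ± 6.69 UMIs per cell against 40.5 ± 8.32 and 43.6 ± 8.39. Ms4a1, of intermediate span (16.6 kb), had 2.22 ± 0.196, 1.81 ± 0.348 and 1.49 ± 0.191. Relative to the typical gene Ms4a1 was lower in cluster 2, by a log2 difference of -0.34 ± 0.09, and on total UMIs its difference was -0.03. In cells thinned to 2000 UMIs, 59.7% of cluster 2 cells and 60.7% of the other B cells had a UMI of Ms4a1, against 80.8% and 72.9% unthinned. For Pax5 the thinned shares were 73.2% and 54.5%, against 91.1% and 67.6% unthinned. Thinning left out 17 of 964 and 207 of 2159 cells with fewer UMIs.

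**Figure D3:**
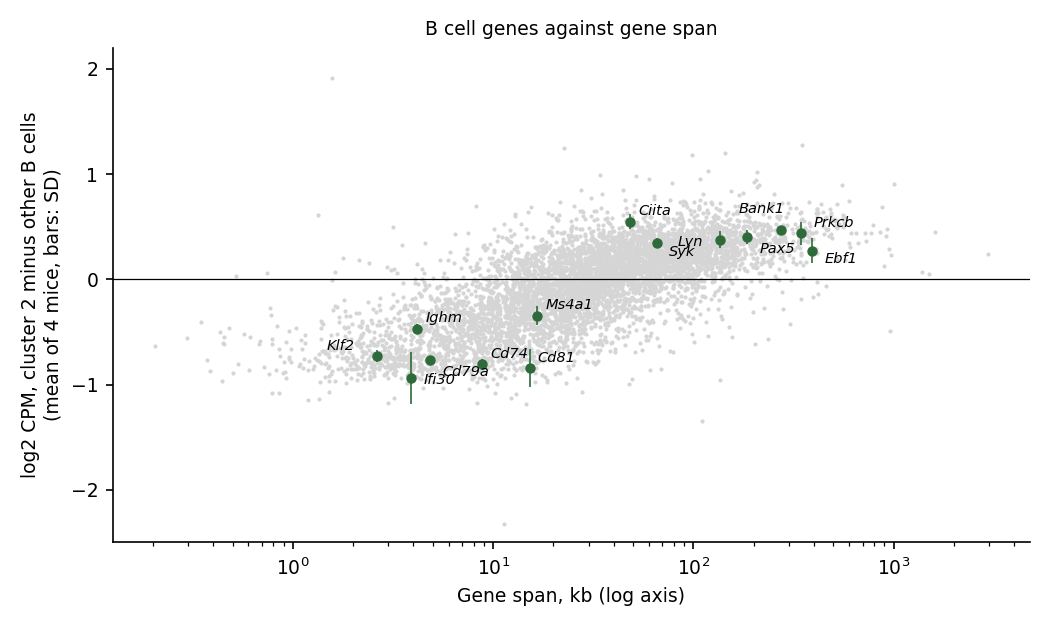
Difference in log2 CPM between cluster 2 and the other B cells (mean of 4 mice) against gene span in kb on a log axis, for all genes at 20 CPM or more (grey) and 14 B cell genes (green, bars: SD over mice). Cd79a, Cd74 and Klf2 lie below 0 among the short genes, and Pax5, Bank1 and Prkcb above 0 among the long genes.

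The genes of B cell receptor signalling divided by the same feature. Of 30 genes, 16 were higher in 4 of 4 mice and 9 lower, with a median log2 difference of 0.21 (all genes: -0.00). Of the kinases that receive the signal, Lyn (135.0 kb) was higher by 0.38 ± 0.08, Syk (65.6 kb) by 0.34 ± 0.05 and Btk (41.2 kb) by 0.26 ± 0.16. Blk (44.2 kb), a further kinase of the list, was at 0.11 ± 0.11 and higher in only 3 of 4 mice. The adaptor Blnk (65.6 kb) was higher by 0.32 ± 0.17. Further downstream, Prkcb (345.7 kb), a protein kinase C, was higher by 0.44 ± 0.11. Relative to the typical gene the inhibitors went both ways. The lipid phosphatase Inpp5d (100.2 kb) was at 0.34 ± 0.08 and the tyrosine phosphatase Ptpn6 (18.0 kb) at -0.43 ± 0.23. Per cell, Ptpn6 had 0.654 ± 0.0911 UMIs in cluster 2, 0.577 ± 0.132 in cluster 0 and 0.505 ± 0.112 in cluster 1. The short genes Cd79b (3.4 kb) and Cd81 (15.2 kb), the latter a component of the co-receptor, were at -0.72 ± 0.04 and -0.84 ± 0.18.

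Of the 12 genes of MHC class II presentation, 11 were lower in 4 of 4 mice and 1 was higher, and the median was -0.61 (-0.29 on total UMIs). The 1 higher gene was Ciita (48.4 kb), the transactivator that switches on the class II genes, at 0.55 ± 0.07. Its targets H2-Aa, H2-Ab1 and H2-Eb1, which encode class II chains, were at -0.64 ± 0.05, -0.60 ± 0.08 and -0.62 ± 0.05. Per cell the order was different: Ciita had 1.02 ± 0.179 UMIs in cluster 2 against 0.553 ± 0.105 in cluster 0, and H2-Aa 12.5 ± 2.13 against 11.5 ± 1.97. The lysosomal thiol reductase gene Ifi30 was at -0.94 ± 0.25.

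The homing and adhesion genes held no common direction, with 2 of 15 higher, 6 lower and a median of -0.06 (0.25 on total UMIs). Cxcr5 (50.1 kb) was higher by 0.31 ± 0.14 and had a UMI in 30.3% of cluster 2 cells (16.5% thinned) against 16.4% of the other B cells (11.01% thinned). The share in CD4+ T cells, some of which express it, was 4.02%. Klf2, a transcription factor of lymphocyte recirculation, was at -0.73 ± 0.06, with 3.09 ± 0.785 UMIs per cell against 3.07 ± 0.786 in cluster 0. Among the survival genes, the anti-apoptotic Bcl2 (176.1 kb) was higher by 0.48 ± 0.16, while Tnfrsf13c (2.6 kb), which encodes the BAFF receptor, was at -0.43 ± 0.08. Per cell, Tnfrsf13c had 0.533 ± 0.0761 UMIs in cluster 2, 0.473 ± 0.127 in cluster 0 and 0.413 ± 0.0708 in cluster 1.

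Of 11 interferon response genes at 20 CPM or more, 7 were lower in 4 of 4 mice and 1 was higher, with a median of -0.55 (-0.25 on total UMIs). Ifi27l2a (1.5 kb) was at -0.96 ± 0.10 and Ly6a (3.2 kb) at -0.89 ± 0.05, and Stat2 (22.3 kb), a transcription factor of the pathway, at 0.36 ± 0.14. The 10 genes of the oxidative stress response at this level had a median of -0.69, with 8 lower. The immediate early genes, induced within minutes of a stimulus, had a median of -0.28 (0.03 on total UMIs, where its sign turns), with 7 of 14 lower and 3 higher. Of 86 ribosomal protein genes, 81 were lower and 2 higher, with a median of -0.83, and of 13 mitochondrial genes 12 were lower, with a median of -0.53.

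The 7 genes higher in 4 of 4 mice and at least 2-fold make up 0.116% of the genes. Plcl1, a phospholipase C-like protein whose locus spans chr1:55405921-55754285 (mm10), had 0.118 ± 0.0425 UMIs per cell in cluster 2 and 0.0392 ± 0.0134 in cluster 0, a log2 difference of 1.28 ± 0.56 against the other B cells. Gab3 (chrX:74966843-75085458), an adaptor protein, was higher by 1.03 ± 0.17, Magi3 (chr3:104013259-104220374), a scaffold protein, by 1.02 ± 0.44 and Hcrtr2 (chr9:76225880-76323856), an orexin receptor, by 1.18 ± 0.19. Angptl1 and Acyp2 were also among the 7, at 1.24 ± 0.75 and 1.20 ± 0.31. The median span of the 7 was 131106 bases, against 30451 for all genes and 5747 for the 806 genes (13.4%) lower in 4 of 4 mice by at least 1.5-fold. Alcam, an adhesion molecule of a much higher level, had 1.49 ± 0.447 UMIs per cell in cluster 2, 0.593 ± 0.107 in cluster 0 and 0.299 ± 0.0589 in cluster 1. The next genes by size were Gm39383, Fam219a, Gm38604, Megf9, Pbx3, Camsap2 and Pard3b, at 0.91 to 0.99. Against cluster 0 alone, the 15 highest genes kept their direction, at 0.57 to 1.20.

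The lowest gene, S100a6, a calcium-binding protein, was at -2.33 ± 1.82, against cluster 0 alone at -0.04 and against cluster 1 alone at -1.42. Its level was 0.0658 ± 0.0346 UMIs per cell in cluster 2, 0.0451 ± 0.0193 in cluster 0, 0.0900 ± 0.0300 in cluster 1 and 5.69 ± 7.24 in the few cells of cluster 10. Cluster 2 and cluster 0 had a like level, and clusters 1 and 10 a higher one. The other 14 genes were at -1.34 to -1.07. They include Psmd10, a chaperone of proteasome assembly, Trmt112, a cofactor of methyltransferases, Ndufa8, a subunit of respiratory complex I, Mrpl34 of the mitochondrial ribosome, the interferon-induced Bst2 and Zbp1, and Armc3, Ift27, Zfand2b, Naa38, Tmem203, Glrx5, Fam162a and Pigyl. Armc3, at -1.34 ± 0.50, spans 110.9 kb and went against the trend with span.

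Not every cluster 2 cell looked alike. In 37 cells, 13 and 8 of the treated and 5 and 11 of the untreated mice, ribosomal protein genes took under 10% of the UMIs, and no cell of clusters 0, 1 and 10 was that low. In these 37 cells the median share of genes over 100 kb was 28.9%, against 17.5% in the 927 others, and the median mitochondrial share was 6.96% against 5.02%. They had a median of 2369 UMIs against 4295, and Cd79a had a UMI in 21 of the 37 (56.8%), against 99.6% of the others. Leaving them out moved the ribosomal protein median from -0.83 to -0.79 and the correlation with span from 0.733 to 0.727. Across the cells of each mouse, the share of long genes and the ribosomal share were inversely related in cluster 2 (Spearman's rho -0.775 to -0.720), and also in clusters 0 and 1 (-0.788 to -0.515). Both are shares of 1 total.

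Hbb-bs, Gm42418, Malat1, Igkc and Gm47782 varied most among the cells of a mouse, with a variance 18.3, 10.4, 7.13, 5.90 and 5.39 times that of Poisson sampling, against a median of 1.28 over 3468 genes (means over the 4 mice). For Hbb-bs the treated mice had 52.7 and 19.2 and the untreated mice 0 and 1.31, so its place rests on the 2 treated mice. Igkc is the kappa light chain constant gene, and Gm42418 overlaps a ribosomal RNA repeat. Then followed the long genes Pard3b, Inpp4b, Kcnq5, Fhit and Immp2l, at 4.19 to 4.86 in cluster 2 and 1.68 to 2.76 in the other B cells.

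The immunoglobulin genes were those of unswitched B cells. Per UMI of Ighm there were 0.361, 0.342, 0.393 and 0.352 of Ighd in Maus3_2, Maus6, Maus2_2 and Maus4_2. In the other B cells the ratio was 0.295, 0.302, 0.324 and 0.279, lower in each mouse, and in cluster 10 it was 0.0883 to 0.128. Both isotypes come from 1 transcript by splicing and 3' end choice. A switched isotype was seen in 5 of 964 cells (0.519%), against 28 of 2159 other B cells (1.30%). Most light chain UMIs were lambda in 55 of 951 cells with at least 3 of them, or 5.78% (95% Wilson interval 4.47% to 7.45%). Per mouse this was 3.97% and 9.68% with treatment and 5.60% and 5.08% without. UMIs of both light chains occurred together in 54.4% of the cells. Since Iglc2 and Iglc3 are near-identical copies and free RNA reaches all droplets, the split between light chains is uncertain, and these intervals cover counting error only.

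Cluster 2 made up 34.2% (95% Wilson interval 31.1% to 37.5%) and 19.5% (17.1% to 22.1%) of the B cells of the treated mice Maus3_2 and Maus6. In the untreated mice Maus2_2 and Maus4_2 it made up 47.0% (42.6% to 51.4%) and 30.7% (27.7% to 33.9%). The groups overlapped, since Maus3_2 lay above Maus4_2, and the difference between the means of -12.0 percentage points did not pass an exact two-sided permutation test over the 4 mice (p = 0.667). With 2 mice against 2, this exact permutation test cannot go below p = 0.333. Both treated mice had a higher share of cluster 1 than both untreated mice (means 35.4% and 25.9%, exact permutation p = 0.333, the smallest possible).

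**Figure D4:**
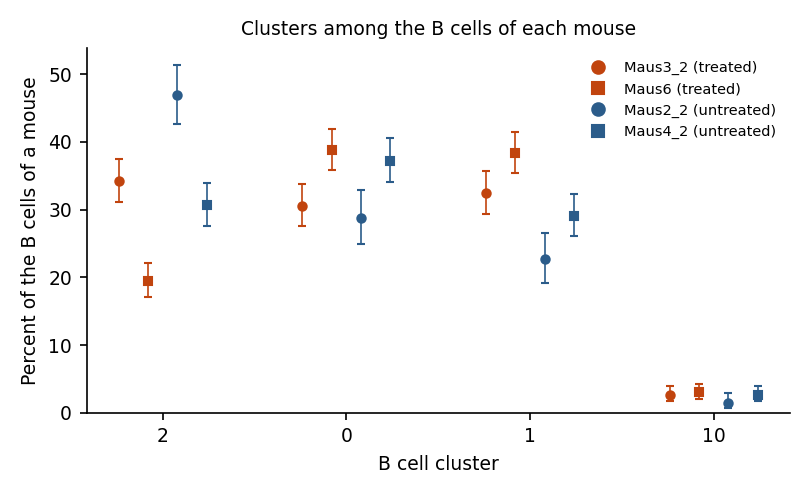
Percent of the B cells of each mouse in clusters 2, 0, 1 and 10 (points: mice; bars: 95% Wilson intervals, which cover counting error only). In cluster 2 the treated mice are at 34.2% and 19.5% and the untreated at 47.0% and 30.7%, so the groups overlap.

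Depth and RNA quality in cluster 2 overlapped between the groups as well. The median number of UMIs per cell was 4863 and 4043 with treatment and 4511.5 and 3338.5 without (exact permutation p = 0.667), and that of genes per cell 1916 and 1719 against 1856.5 and 1490 (exact permutation p = 0.667). The median mitochondrial share per cell was 5.12% and 5.06% against 5.09% and 4.84% (exact permutation p = 0.667).

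The treatment was then compared over mice on the counts summed within cluster 2, by edgeR's quasi-likelihood test. None of 8007 genes passed an adjusted p of 0.05, and the smallest adjusted p was 0.119. At an unadjusted p under 0.05 there were 270 genes (3.37%), 144 of them higher and 126 lower in treated mice, and the mice of the groups did not overlap for 2549 genes (31.8%). DESeq2 also called 0, with 18 genes at an unadjusted p under 0.05. In the other B cells the same test called 0 of 8875 genes, with 364 (4.1%) at an unadjusted p under 0.05. No gene is therefore called changed here, and the following values are given as measured, on CPM scaled within cluster 2.

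The gene with the smallest p was Hbb-bs, which encodes a beta chain of adult haemoglobin and is a product of red blood cells. Treated mice had 131 and 47.9 CPM and untreated mice 0 and 12.3 CPM (adjusted p = 0.119 in edgeR). Its UMIs numbered 180 and 37 against 0 and 11, of which a single cell held 92 in Maus3_2 and 25 in Maus6. The 5 red blood cell markers together summed to 208 and 39 UMIs with treatment and 7 and 18 without, and their part in the result was not tested. Hbb-bs passed the threshold with no filter, when cells were thinned or drawn in equal numbers, without the cells of few ribosomal UMIs and when Maus6, Maus2_2 or Maus4_2 was left out, and not when Maus3_2 was left out. Among the lower genes, Gm42418 was at 14813 and 12273 CPM against 18336 and 16710 (log2 fold change -0.37 ± 0.07 SE, adjusted p = 0.776), and it was lower to a like extent in the other B cells (-0.47 ± 0.09, adjusted p = 0.505). In cluster 2 Gm42418 passed the threshold with no filter on low counts and when Maus3_2, Maus2_2 or Maus4_2 was left out, and not when Maus6 was left out. Lars2, a mitochondrial leucyl-tRNA synthetase, was at 394 and 461 CPM against 643 and 522 (-0.46 ± 0.12) and at -0.44 ± 0.13 in the other B cells.

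For other genes with low p-values the values in the other B cells went another way or lay near 0. Arl15, a small GTPase, had 117 and 108 CPM with treatment and 188 and 169 CPM without (log2 fold change -0.66 ± 0.14, and 0.11 ± 0.14 in the other B cells). Pum3, an RNA-binding protein of the nucleolus, was at 32.7 and 33.7 against 15.3 and 15.7 CPM (1.09 ± 0.31, and -0.44 ± 0.27 in the other B cells). Hacd2, an enzyme of fatty acid elongation, was at 46.6 and 54.4 against 27.8 and 24.6 CPM (0.92 ± 0.25). The genes named here were picked among those whose groups did not overlap (31.8% of all genes), so their lack of overlap is no further result. Vps9d1, 4933406C10Rik and Zc3h12b were low in each mouse, at 0 to 22.0 CPM, and Gm47782, a non-coding RNA, was at 66.2 and 88.1 against 125 and 126 CPM.

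Whether the treated minus untreated difference itself differed between cluster 2 and the other B cells was the interaction term of 1 model with the mouse as block. None of 8814 genes passed (smallest adjusted p = 0.990), and 408 (4.63%) were at an unadjusted p under 0.05. The smallest p-values toward cluster 2 belonged to Eif2b3, Pmepa1, Pum3, Jak1 and Fam3c. Jak1, a cytokine receptor kinase, had a log2 fold change of 0.18 ± 0.10 in cluster 2 and -0.18 ± 0.09 in the other B cells. Toward the other B cells they belonged to Arl15, Rabepk, Zc3h12b, Pin4 and Mipol1.

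The study followed genes targeted by 2 miRNAs of blood cells, miR-223-3p and miR-451a, into the single cells. A miRNA represses mRNAs whose 3' UTR pairs with its seed, bases 2 to 8, and mature miRNAs are not measured in these libraries. Their sequences, from chrX:96242884-96242905 and chr11:78073186-78073207 on the plus strand, are shown because the sites below pair with them (RefSeq, GRCm38.p6, seed in capitals).
mmu-miR-223-3p: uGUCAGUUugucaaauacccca
mmu-miR-451a: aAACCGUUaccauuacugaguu

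Of the 15 target genes, 7 hold at least 1 full seed match of miR-223-3p and 4 of miR-451a in the longest 3' UTR annotated by GENCODE vM21, and 5 hold neither. The sites of the 2 targets with the smallest p in cluster 2 are shown (5' to 3' on the transcript strand, mm10, match in capitals). That of Rgs2 is a 7-base match at chr1:144001590-144001596 on the minus strand, and that of Rasa1 an 8-base match at chr13:85215720-85215727 on the minus strand.
Rgs2: aaaaaaaaaaaAACTGACcttgaattcagc
Rasa1: actatgaaatcAACTGACAaggaaacgcat

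The study picked these 15 from listed targets that were significant in its own treatment test on the single cells of these mice. Their counts here are therefore not independent of that choice. All 15 target genes passed the filter in cluster 2. In treated mice 5 were higher and 10 lower, 1 in each direction at an unadjusted p under 0.05 (of all genes 1.8% and 1.57%), and none passed after adjustment. Rgs2, which limits signalling of G protein-coupled receptors, had 51.7 and 51.8 CPM with treatment and 24.9 and 33.6 CPM without (log2 fold change 0.83 ± 0.25 SE, adjusted p = 0.999 in edgeR). In the other B cells its fold change was -0.14 on the log2 scale, and the difference between cluster 2 and the other B cells had an unadjusted p of 0.00561 and an adjusted p of 0.990 in edgeR. Rasa1, a brake on the GTPase RAS, was at 76.4 and 90.7 against 109 and 113 CPM (-0.43 ± 0.17).

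The groups did not overlap for 7 of the 15 (of all genes 31.8%), namely for Rgs2, Trappc6b and Sptssa, higher in treated mice, and for Rasa1, Scd1, Macf1 and Camk1d, lower. Scd1, a fatty acid desaturase, was at 271 and 251 against 289 and 334 CPM, and Macf1, a cytoskeletal linker, at 810 and 825 against 865 and 858 CPM. Camk1d, a calcium-dependent kinase, was at 1380 and 1511 against 1535 and 1527 CPM. Trappc6b, of vesicle transport, was at 50.9 and 57.0 against 40.2 and 41.4 CPM, and Sptssa, part of the first enzyme of sphingolipid synthesis, at 53.8 and 47.9 against 42.1 and 44.7 CPM. Of these 7, only Rgs2 and Rasa1 had an unadjusted p under 0.05. Macf1 was also lower in the other B cells (-0.27, against -0.08 in cluster 2). Mif, a cytokine, was at 98.9 and 82.9 against 91.0 and 143 CPM, and its fold change of -0.33 in cluster 2 stood beside 0.29 in the other B cells. Celf1, Setd5, Tnik, Mbnl1, Prkcb, Phf20l1 and Ap2b1 overlapped between the groups, at log2 fold changes of -0.23 to 0.17.

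**Figure D5:**
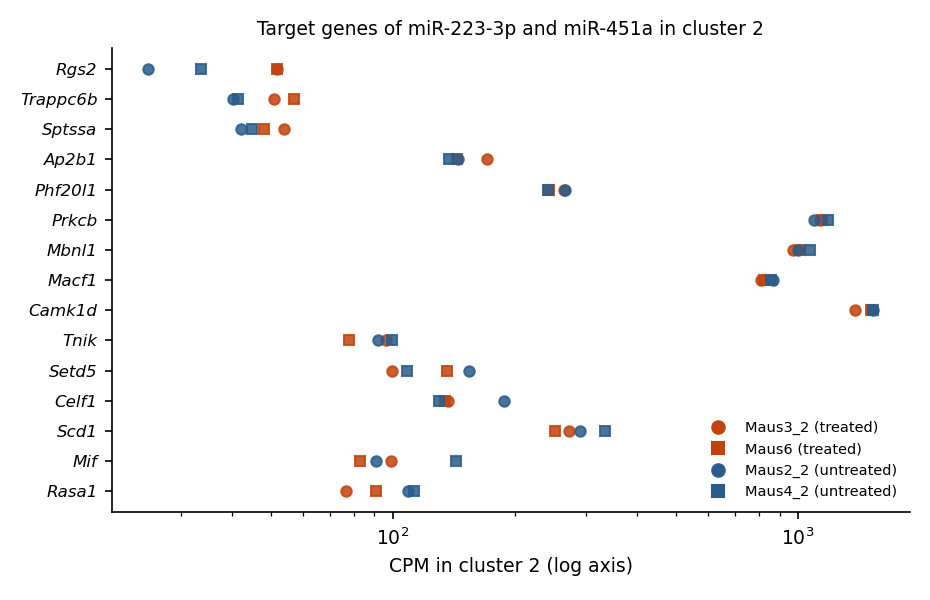
CPM in cluster 2 of the 15 target genes in each mouse on a log axis (orange: treated, blue: untreated), ordered by log2 fold change. Rgs2 at the top has both treated mice at 51.7 and 51.8 CPM above the untreated mice at 24.9 and 33.6 CPM, and Rasa1 at the bottom has both below.

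Among the other gene lists, 13 of 13 interferon response genes that passed the filter were lower in the treated mice, with a median log2 fold change of -0.15 (all genes: 0.00, with 49.9% of genes lower). None of them was at an unadjusted p under 0.05, the groups did not overlap for 4 (of all genes 15.7% in this direction), and in the other B cells 9 of 21 were lower (of all genes 49.8%) with a median of 0.02. Xaf1, an apoptosis-promoting gene, was at 18.2 and 16.8 against 23.0 and 25.7 CPM, and Irgm1, an immunity-related GTPase, at 18.9 and 9.07 against 24.9 and 19.0 CPM. The low counts leave most of these genes with wide errors (-0.46 ± 0.32 and -0.55 ± 0.39).

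For MHC class II presentation 9 of 12 genes were higher in treated mice with a median of 0.08, and for the glucocorticoid response 7 of 8 with a median of 0.10. Of all genes 50.1% were higher and 49.9% lower. Of 87 ribosomal protein genes 62 were lower, with a median of -0.04, and the groups did not overlap for 21 of these and for 2 in the other direction (of all genes 15.7% and 16.2%). The share of UMIs from these genes was 19.2% and 18.9% with treatment and 19.4% and 19.6% without (exact permutation p = 0.333, the smallest possible). Of 19 immediate early genes 11 were higher, and 1 was at an unadjusted p under 0.05 in each direction (of all genes 1.8% and 1.57%). These were Klf6 (146 and 119 against 113 and 97.3 CPM) and Egr3 (10.2 and 10.4 against 17.2 and 21.3 CPM). Bcl2 was at 295 and 330 against 417 and 336 CPM (-0.28 ± 0.13). Of 6 cell cycle genes 5 were lower, with a median of -0.38. The groups did not overlap for 3 of these (of all genes 15.7% in this direction). Top2a, a DNA topoisomerase, was at 6.55 and 3.89 against 11.5 and 15.7 CPM (-1.26 ± 0.52), and the 1 higher gene, Mcm6 of the replicative helicase, at 64.7 and 42.8 against 25.8 and 35.8 CPM (0.87 ± 0.27). The markers themselves stayed close, with Cd79a at 1967 and 2000 against 1831 and 1816 CPM and Ighd at 746 and 742 against 820 and 784 CPM. No list held a gene past the adjusted threshold.

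For the treatment comparison within cluster 2, the Spearman's rho of gene span with the log2 fold change was -0.101 across 7947 genes that are not independent, with medians from 0.03 for genes up to 5 kb to -0.04 for those over 200 kb. In the other B cells it was -0.159, with medians from 0.04 to -0.07.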

How the data were processed

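The authors aligned 3' droplet libraries to mm10 and counted UMIs, with Cell Ranger 7.1.0 and Seurat 4.3.0 named in the submitters' processing notes. The study's methods state removal of ambient RNA with SoupX, filters on genes and mitochondrial share per cell, and removal of doublets with DoubletFinder, so no doublet caller was run again. The deposited file holds UMI counts as whole numbers (15093 genes, 5794 cells). The cell table deposited by the authors holds clusters, cell types and the percent of mitochondrial counts per cell, which was recomputed here from the counts. The sources used here do not state whether SoupX acts on these counts. No value column was left out (0).

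Counts were summed per mouse for cluster 2 and for clusters 0, 1 and 10. Quasi-likelihood models with TMM scaling were fitted in edgeR 4.0.16 under R 4.3.3 after its filter on low counts, with Benjamini-Hochberg adjustment over all genes tested, and was tested on simulated data. The interaction model had the mouse as block. The study's own test takes cells as replicates and was not used. Cluster 2 was set against the other B cells by log2 CPM with a prior count of 2, with no test. Cells were thinned to 2000 UMIs for shares of cells. Single values per mouse were compared by exact permutation. Gene spans came from GENCODE vM21 (14854 of 15093 symbols matched). Alternatives were DESeq2 1.42.0, RLE, no filter, equal cells per mouse, other reference clusters and leaving out each mouse.

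The members, gene lists and tests were chosen with earlier results of these data known. Named genes are the 15 highest and 15 lowest between clusters among genes at 20 CPM or more and on the same side in 4 of 4 mice. For treatment and interaction, they are the 5 smallest p per direction, for treatment among genes whose groups do not overlap. Target genes, markers and up to 4 members of each list with the smallest p were added, as were the 10 most variable genes at 0.2 UMIs per cell or more. List members in the comparison of clusters were picked after their values were seen. No label says more of the mice than that they are separate animals. Some genes that meet these rules are not reported here.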

Additional observations from a re-analysis of the deposited data

Results flagged for a closer look

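Among 88 values checked over the 4 mice, 3 had 1 mouse far from the other 3, and chance alone gives about 1 in 20. All 3 are log2 differences between cluster 2 and the other B cells. S100a6 was at -5.03 in the untreated mouse Maus2_2, Ndufa8 at -1.39 and Fkbp5, a glucocorticoid-induced co-chaperone, at 1.11 in the treated mouse Maus6. In the other mice S100a6 was at -1.64 to -1.06, Ndufa8 at -0.99 to -0.97 and Fkbp5 at 0.42 to 0.53.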

How the results depend on the processing

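The treatment calls in cluster 2, 0 as reported, became 6 with no filter on low counts and 1 each with equal cells per mouse (187), with thinned cells and without cells under 10% ribosomal UMIs, the last 2 chosen after seeing the data. Leaving out 1 mouse gave 3 to 5. In the other B cells no filter gave 17 and leaving out 1 mouse 2 to 17, and for the difference of effects leaving out 1 mouse gave 0 to 1. A lone mouse of an arm was assumed to vary like the others, and the cause of these calls was not tested. Leaving out 1 mouse moved the depth differences between -58.5 and 1114.5 UMIs, -39.0 and 327.5 genes and -0.0011 and 0.249 mitochondrial percentage points, each turning without Maus4_2, and the difference in share between -20.1 and -3.81 points.

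The ribosomal protein median was -0.51 on total counts (added after seeing the data), -0.57 against cluster 0 and -1.09 against cluster 1. The correlation with span was 0.660 against cluster 0 and 0.692 with thinned cells. Genes at least 1.5-fold higher numbered 150, but 1323 on total counts, 74 against cluster 0 and 803 against cluster 1. Those lower numbered 806, but 79 on total counts and 215 against cluster 0.

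Of 1406 alternative values of named genes, 22 reversed. On total counts these were Ighd (0.12), Fcer2a (0.14), S1pr1 (0.23, and 0.023 against cluster 0) and Malat1 (0.24). For treatment in cluster 2 they concern 7 genes, which leaving out 1 mouse moved between -0.46 and 0.071 (Celf1), -0.055 and 0.060 (Prkcb), -0.42 and 0.088 (Setd5), -0.072 and 0.081 (Phf20l1), -0.30 and 0.012 (Tnik), -0.63 and 0.024 (Mif), and -0.58 and 0.0040 (Trim30a). With equal cells Prkcb was at 0.0020 and Phf20l1 at -0.0083. With thinned cells Prkcb was at 0.0088, Phf20l1 at -0.017 and Trim30a at 0.14. Phf20l1 was at -0.00057 in DESeq2 and -0.033 without the cells of few ribosomal UMIs. Depth limits genes of few UMIs: the median SE of a log2 fold change was 0.26 in cluster 2.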
